A study of Mus musculus with 12 samples.

Results

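The genes described here are 35 genes of the replication fork, of nucleotide supply and of S-phase repair, read in fibroblasts of mouse embryos with an intact or a mutated Rb1 gene. They were chosen by name, with earlier results of these data known. Each was read from the probe set annotated to that symbol alone. Where a gene had several such probe sets, the brightest on average over 12 arrays was taken. All 35 were measured, among 19938 genes tested. The members divide by role into 6 subgroups: 7 polymerase and primase genes, 9 genes for the clamp, its loader, single-strand binding and Okazaki fragment joining, 6 for helicase activation, 6 for the fork checkpoint and repair, 4 for nucleotide synthesis, and 3 for histone supply and chromatin assembly.

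RNA abundance was measured on 12 whole-transcript Affymetrix arrays, 1 per sample, in 4 groups of 3: cells with the Rb1 S/S mutant genotype, the Rb1 +/+ cells matched to them, cells with the Rb1 L/L mutant genotype, and the Rb1 +/+ cells matched to those. S/S and its wild type are called the S set and L/L and its wild type the L set, and the wild types are called the S-set and the L-set controls. All cells had been grown in 10% serum until passage 4 and then held in 0.1% serum for 72 h, so the wild-type controls were serum-starved too. What either allele changes in the protein is not stated in the labels. They are also silent on separate embryos or cultures behind the 3 replicates of each group, so every p-value reflects the spread of these samples alone. In the L set, array 1 of each group had Y-linked genes on and the other arrays did not. Those replicates were therefore not all repeats of the same cells. In the S set the spread may be technical.

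Before S phase, the retinoblastoma protein binds E2F transcription factors and keeps their target genes low. Many of those targets encode the machinery listed here, which unwinds origins, primes and extends both strands, loads the sliding clamp, seals Okazaki fragments, supplies deoxynucleotides and packs the new DNA into nucleosomes. Fibroblasts without serum leave the cycle, and these genes are known to be low in that state and to be induced on entry into S phase. In RNA from a whole culture, more cells in S phase and more RNA per cell cannot be told apart.

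All values are log2 units on the scale the authors deposited. The members' means over 12 arrays ran from 5.27 for Dscc1 to 10.93 for Pcna, against a median of 7.44 for all genes tested, and 25 of 35 lay above that median. Probe sets of Y-linked genes in the 10 arrays that carry none gave 3.82 to 5.51, and Dscc1 was the 1 member whose mean was not above that range. The 5.51 was read in S-set control array 1, and the highest value outside that array was 5.17. The mean of Dscc1, which encodes a subunit of an alternative clamp loader, is thus near these values.

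Array quality and cell makeup differed among the arrays. S-set control array 1 stood apart, with a residual SD of 0.325 against 0.093 to 0.193 in the other 11 arrays. L-set control array 1 and L/L array 1 had Y-linked genes on (7.65 or more), and the other 10 arrays did not. Fibroblast markers were high in all groups, with list means of 11.56 to 11.98 in the single arrays, and 12 of 12 had a group mean of 8.7 or more in every group. Macrophage markers were also present. Relative to the mean over 12 arrays, the 12 macrophage markers averaged −0.49, −0.29 and −0.21 in the S-set controls and 0.41, 0.37 and 0.50 in S/S. They averaged −0.91, 0.01 and 1.21 in the L-set controls and −1.28, 0.44 and 0.24 in L/L. All 12 lay above the controls in S/S (median difference 0.71) and 11 of 12 below them in L/L (−0.35), opposite to most members in both mutants, and their part in the results was not tested.

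Because E2F proteins act at promoters, the members' promoter windows were searched for E2F-type words. The windows are those of RefSeq on GRCm38.p6, from 250 bases before to 50 after each annotated start, and 29 of 35 members had at least 1. The word TTCCCGC was searched on both strands, as were 3 relatives of it, namely TTCGCGC as well as TTGCCGC and also TTGGCGC, and overlapping matches were counted. They occurred in 19 of 29 members (65.5%), against 14.7% of all tested genes with a window and 9.57% of all 32851 windows of that length. The stricter form, the same words with a further T in front, occurred in 8 of 29 members (27.6%) and in 3.48% of all tested genes with a window. By subgroup the 7-letter words were found for 5 of 6 polymerase and primase genes, 5 of 8 in the clamp and joining subgroup, 2 of 3 in helicase activation, 3 of 5 in checkpoint and repair, 2 of 4 in nucleotide synthesis and 2 of 3 in chromatin assembly. Origin licensing genes had them in 9 of 13 (69.2%) and mitosis genes in 2 of 24 (8.33%). A match describes the letters in the window and is not a measured binding site. Gins1, Gins2, Gins4, Dscc1, Exo1 and Pole had no window in the table used. The windows of the 4 members with the smallest p-values in L/L among those holding a word are printed 5′ to 3′ on the strand of the gene, with the words in capitals.
Chaf1b (chr16:93883651-93883950, plus strand): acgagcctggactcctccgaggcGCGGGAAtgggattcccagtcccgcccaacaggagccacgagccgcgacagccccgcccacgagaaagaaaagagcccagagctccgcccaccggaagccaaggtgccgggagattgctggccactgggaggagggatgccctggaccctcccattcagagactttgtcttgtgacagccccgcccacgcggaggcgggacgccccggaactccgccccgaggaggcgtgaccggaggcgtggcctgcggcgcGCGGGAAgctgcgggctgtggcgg
Prim1 (chr10:128014965-128015264, plus strand): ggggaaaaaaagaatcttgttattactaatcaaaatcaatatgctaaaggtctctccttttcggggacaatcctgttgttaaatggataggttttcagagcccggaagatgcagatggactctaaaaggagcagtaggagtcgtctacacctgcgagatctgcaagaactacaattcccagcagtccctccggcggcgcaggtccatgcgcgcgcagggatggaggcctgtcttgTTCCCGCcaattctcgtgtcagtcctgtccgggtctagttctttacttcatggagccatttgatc
Pold1 (chr7:44548766-44549065, minus strand): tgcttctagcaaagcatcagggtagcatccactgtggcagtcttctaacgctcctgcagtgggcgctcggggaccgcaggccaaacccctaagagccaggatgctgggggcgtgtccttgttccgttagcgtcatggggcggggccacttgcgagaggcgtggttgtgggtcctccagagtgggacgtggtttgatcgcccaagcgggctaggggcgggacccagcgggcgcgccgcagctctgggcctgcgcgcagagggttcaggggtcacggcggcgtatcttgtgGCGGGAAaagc
Rrm1 (chr7:102441445-102441744, plus strand): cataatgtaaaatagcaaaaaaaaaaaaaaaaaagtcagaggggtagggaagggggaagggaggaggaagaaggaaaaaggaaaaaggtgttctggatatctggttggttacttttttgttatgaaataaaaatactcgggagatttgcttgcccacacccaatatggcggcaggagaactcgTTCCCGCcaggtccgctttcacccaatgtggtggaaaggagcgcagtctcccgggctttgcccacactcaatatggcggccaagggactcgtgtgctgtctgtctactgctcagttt
Chaf1b holds the word at bases 24 and 277 of its window, Prim1 at base 236, Pold1 at base 290 and Rrm1 at base 184. In all 4 windows it is the same word, TTCCCGC, read as GCGGGAA in Chaf1b and Pold1. Pola2, which had a p-value between those of Prim1 and Pold1, held none of these words in its window.

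In L/L cells, all 35 members lay above their matched wild type, by 0.08 to 1.15 with a median of 0.37, while 55.9% of all genes were above it and the median of all genes was 0.02. No member passed the test, which was limma with Benjamini-Hochberg adjustment over 19938 genes at an adjusted p under 0.05. Over all genes 8 passed, all higher (0.0401%). At an unadjusted p under 0.05, 20 of 35 members were higher and 0 lower, against 2.68% of all genes higher and 0.582% lower. For 20 of 35 members all 3 L/L arrays lay above all 3 wild-type arrays, against 9.71% of all genes, and for 0 did they lie below (5.1% of all genes).

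In S/S cells the direction was mostly the other one. There 28 of 35 members lay below wild type, by a median over all 35 of −0.16 (range −0.49 to 0.55), while the median of all genes was −0.04 and 42.4% of all genes were above 0. No member passed limma's test in S/S (0.12% of all genes passed, 0.0903% as higher and 0.0301% as lower). At an unadjusted p under 0.05, 6 members were lower and 0 higher, against 4.93% of all genes lower and 5.21% higher. All 3 S/S arrays lay below all 3 wild-type arrays for 7 members (6.29% of all genes), and above them for 0 (5.49%). After quantile normalization 30 members lay below 0, with Rfc4, Gins2 and Rrm2 below it and Cdc7 above.

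The difference between the effects, L/L minus S/S, was tested directly in the same fit. It was above 0 for 35 of 35 members, with a median of 0.50 against 0.06 over all genes, of which 60.2% were above 0. No member passed in limma (0.015% of all genes did, 0.01% as higher and 0.00502% as lower). At an unadjusted p under 0.05, 21 of 35 were above 0 and 0 below, against 3.79% and 2.71% of all genes. For Pola2, Fen1, Lig1 and Chaf1b, all 3 L/L arrays lay above and all 3 S/S arrays below their own wild types. This pattern of 4 in 35 occurred in 0.727% of all genes. The gap between the 2 control groups enters the difference between the effects. In the L-set controls these 4 lay below the S-set controls, by −0.54, −0.44, −0.66 and −1.02 in the same order. Their L/L and S/S means lay closer together: 8.92 and 8.86, 7.44 and 7.32, 8.26 and 8.11, and 9.23 and 8.88.

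**Figure D1:**
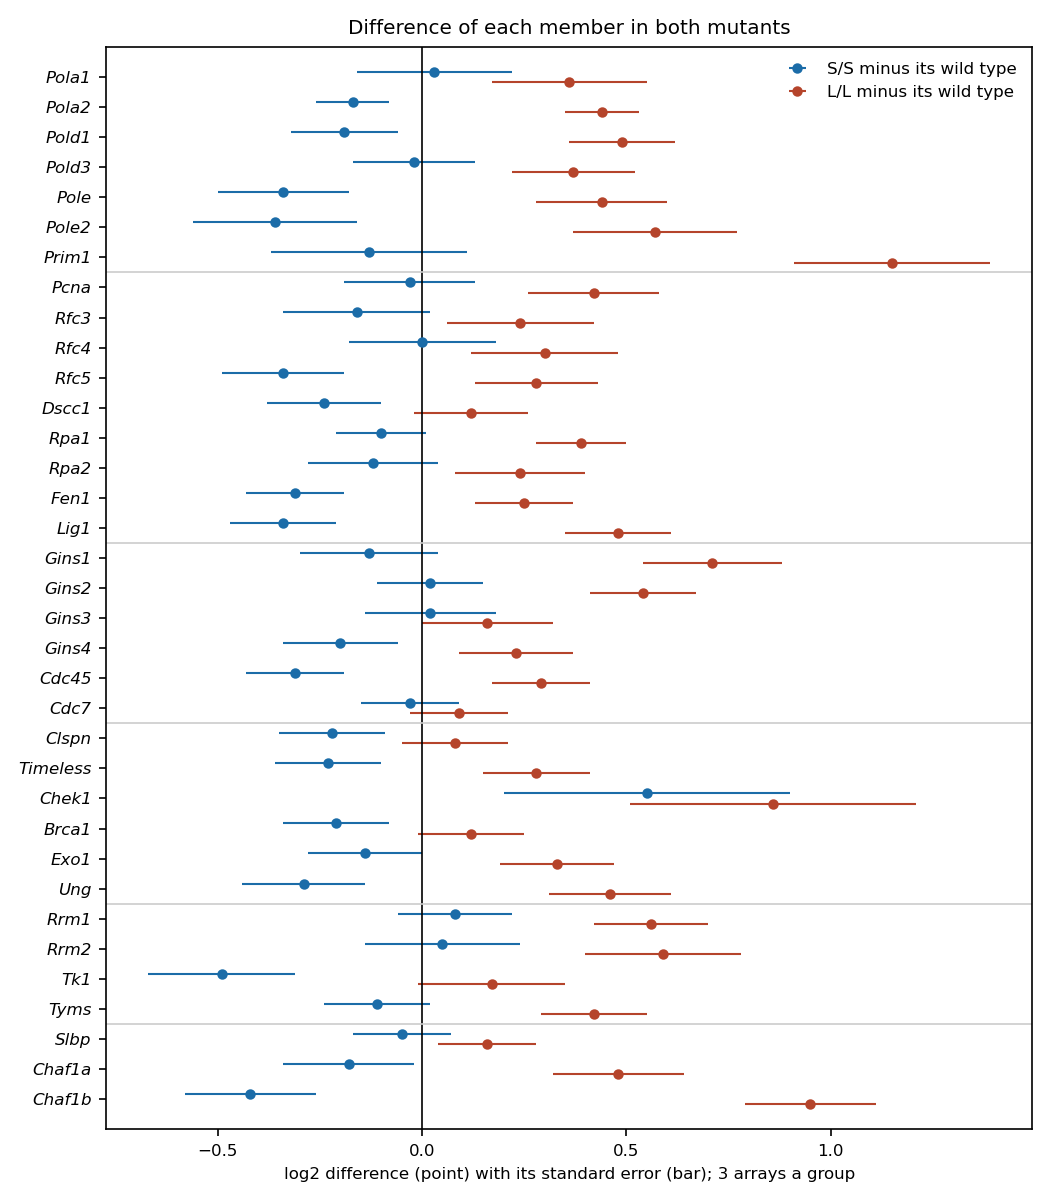
Log2 difference of each member from its matched wild type (points) with the standard error of the model (bars), for S/S in blue and L/L in red, 3 arrays a group; grey lines divide the subgroups by role. All 35 red points lie to the right of 0, and 28 of 35 blue points lie to the left.

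These counts depend on single arrays and on how arrays are weighted. Leaving out L-set control array 3, Chaf1b passed in L/L (adjusted p = 0.00604 in limma) and in the difference between the effects (0.00377). Over all genes 6 then passed in L/L and 7 in the difference. The median in L/L without that array was 0.47, and the groups were apart for 34 of 35 members (16% of all genes). With L-set control array 1 left out, the L/L median was 0.24, and 32 members lay above 0. The groups were then apart for 20 members (16.0% of all genes). Leaving out L-set control array 2 or single L/L arrays gave 20 to 26 members apart (14.2% to 15.6%), against 20 (9.71%) with all arrays. When S-set control array 1 was left out, Prim1 (adjusted p = 0.0223 in limma) and Chaf1b (0.0313) passed in L/L, and Prim1 passed in the difference (0.0472). Over all genes 26 then passed in L/L and 21 in the difference. In the fit, the L/L differences of Prim1 and Chaf1b do not use that array and stayed at 1.15 and 0.95. There it enters the L/L test only through the spread shared by the 4 groups. Whether it also shaped the deposited L-set values, through a joint normalization, is not known. In S/S, with that array left out, all 35 members lay below their controls (median −0.22), and the groups were apart for 22 of 35 (13.4% of all genes). Over all alternatives the adjusted p in L/L ran from 0.000459 to 1 for Chaf1b and from 0.000578 to 1 for Prim1. In the difference it ran from 0.00377 to 0.621 for Chaf1b and from 0.00499 to 0.976 for Prim1. The S/S median was −0.08 when S-set control array 2 was left out and −0.09 for array 3. Groups were apart in S/S for 11 members without S/S array 3 (13.5% of all genes). With array weights estimated by limma, which ran from 0.077 for S-set control array 1 to 5.875 for array 2 of that group, 16 members passed in L/L, 16 in the difference and 2 in S/S. That weighting also raised the genes passing over all genes to 336 in L/L, 293 in the difference and 415 in S/S.

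**Figure D2:**
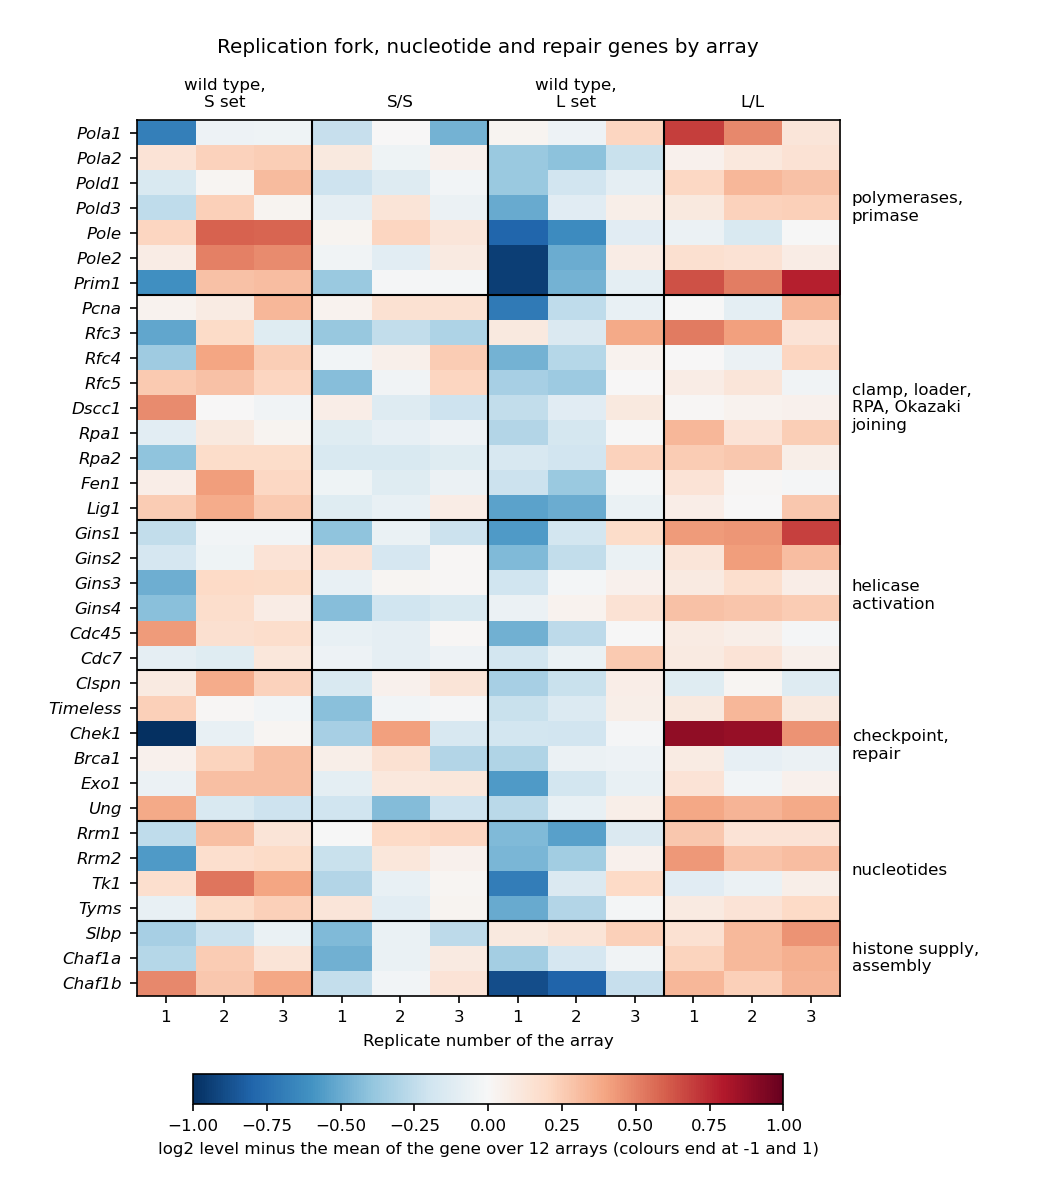
Level of each member in each array relative to its own mean over 12 arrays, on the log2 scale, with arrays in columns by group and replicate number and members in rows by role. The columns of L/L are red for most rows, and columns 1 and 2 of the L-set controls are blue for most rows.

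Averaged over the 35 members and relative to the mean over 12 arrays, the L-set controls stood at −0.39, −0.24 and 0.03 and the 3 L/L arrays each stood at 0.20. The S-set controls stood at −0.13, 0.18 and 0.17 and the S/S arrays at −0.16, −0.03 and −0.03. The L/L level was thus close to that of S-set control arrays 2 and 3, and the L-set controls had the lowest of the 4 group means for 24 of 35 members. L/L was the highest group for 20 members, and its mean lay above that of the S-set controls for 20 members, with a median difference of 0.12 across the sets. Set and genotype cannot be told apart in that last comparison.

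Within the L-set controls the members had a common order of arrays. Array 3 was the highest of the 3 for 35 of 35 members, against 33.3% of all genes, and array 1 was the lowest for 27 (35.3% of all genes). The median SD over 3 arrays was 0.208 for the members and 0.0919 for all genes in that group, but 0.0816 for the members and 0.0884 for all genes in L/L. The SD was smaller in L/L than in its wild type for 32 of 35 members, and for 52.9% of all genes. Macrophage markers were ordered the same way as the members in this wild type (−0.91, 0.01 and 1.21). In L/L they spanned −1.28 to 0.44 while the mean of the members stayed at 0.20. The part of macrophages in the wild-type spread was not tested.

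Both control groups were compared to measure how far the sets differ at the same genotype. In the L-set controls 29 of 35 members lay lower, with a median of −0.28 against −0.07 for all genes, and 7 passed limma's test, all lower (5.17% of all genes passed as lower and 3.54% as higher). These 7 were Chaf1b (−1.02, adjusted p = 0.00326), Pole (−0.97, 0.00411), Pole2 (−0.80, 0.0277), Lig1 (−0.66, 0.009), Pola2 (−0.54, 0.00545), Cdc45 (−0.50, 0.0271) and Fen1 (−0.44, 0.0384). Of the members 3 passed without L-set control array 1, 4 without array 2 and 12 without array 3, when 525, 714 and 1098 of 19938 genes passed, against 1736 with all arrays. Without S-set control array 1, 15 members and 2078 genes passed. Without the arrays with Y-linked genes 2 members and 304 genes passed, and with array weights 26 members and 6520 genes. The labels do not say what besides the set differs between these groups, and embryo, culture and array handling cannot be told apart.

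**Figure D3:**
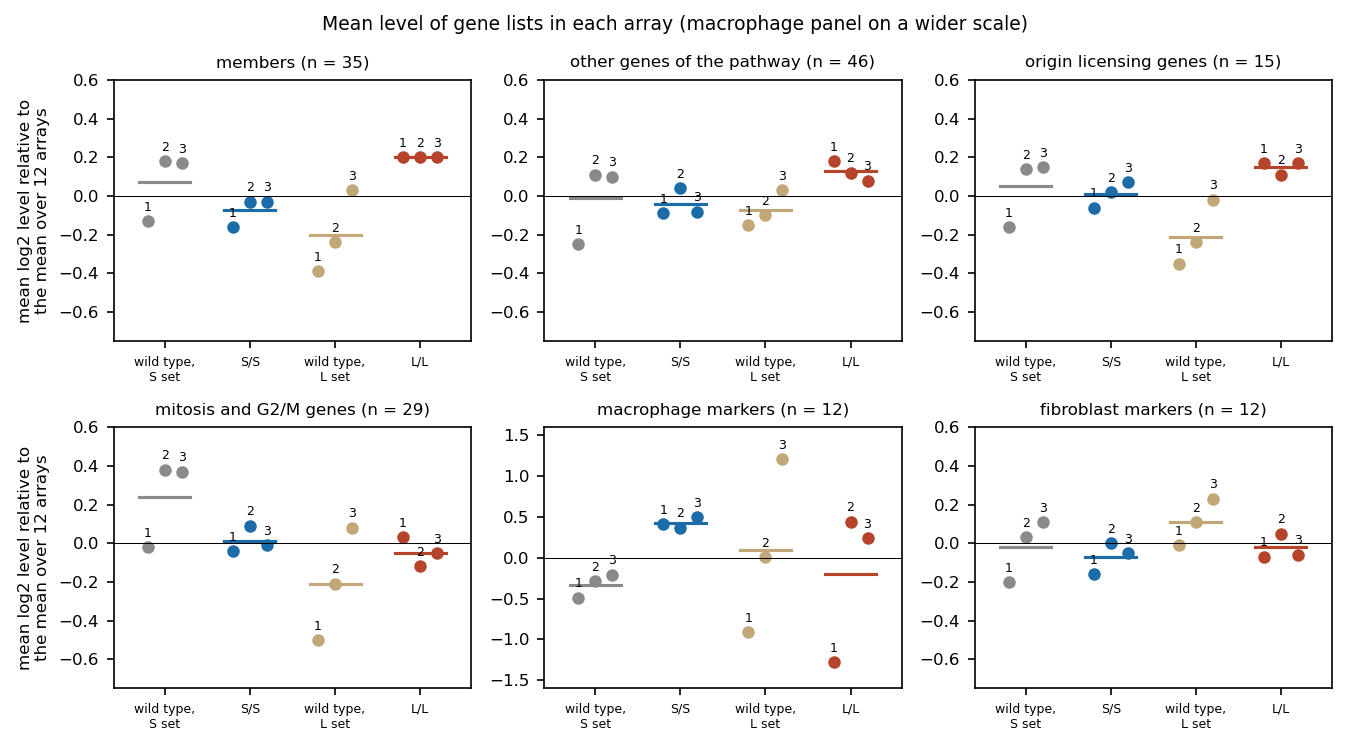
Mean log2 level of 6 gene lists in each array relative to the mean over 12 arrays; points are arrays with their replicate number, lines are group means of 3, and the macrophage panel has a wider axis. The members stand at 0.20 in all 3 L/L arrays and between −0.39 and 0.03 in the L-set controls.

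Among the polymerase and primase genes, all 7 lay above wild type in L/L (median 0.44), 6 of them at an unadjusted p under 0.05 (2.68% of all genes). Prim1 encodes the catalytic subunit of primase, which lays down the RNA primers. It read 6.71, 7.18 and 7.55 in the L-set controls and 8.29, 8.16 and 8.43 in L/L. The groups did not overlap, and the difference of 1.15 (SE 0.24, n = 3 per group) was the largest of the 35 but did not pass in limma (adjusted p = 0.253). The S-set controls read 7.04, 7.94 and 7.96 and S/S 7.28, 7.64 and 7.63, so that only wild-type array 1 lay below the S/S arrays. Its L/L arrays were above all other 9 arrays.

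Pola2, the accessory subunit of polymerase alpha, had the smallest standard error of the members. It read 8.45, 8.41 and 8.60 in the L-set controls and 8.87, 8.93 and 8.97 in L/L. The difference of 0.44 (SE 0.09) had an adjusted p of 0.275 in limma. Values of the S-set controls were 8.96, 9.05 and 9.07 and those of S/S 8.92, 8.78 and 8.87, a difference of −0.17 (SE 0.09). The S/S arrays were below their wild type without overlap, and the L/L arrays overlapped both S/S and the S-set controls.

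Pold1 encodes the catalytic subunit of the lagging-strand polymerase delta. It read 7.77, 7.95 and 8.05 in the L-set controls and 8.35, 8.47 and 8.43 in L/L, which did not overlap (0.49, SE 0.13, adjusted p = 0.426 in limma). The S-set controls read 7.99, 8.16 and 8.46 and S/S 7.93, 8.01 and 8.11, which did overlap (−0.19, SE 0.13). The leading-strand polymerase epsilon genes Pole (0.44 in L/L, −0.34 in S/S) and Pole2 (0.57 and −0.36) had differences of opposite sign. In L/L their groups overlapped with L-set control array 3 at the L/L level, and in S/S the groups of Pole did not overlap. Pold3, an accessory subunit of polymerase delta, differed by 0.37 in L/L without overlap and by −0.02 in S/S. Pola1, the catalytic subunit of polymerase alpha, differed by 0.36 and 0.03, with overlap in both sets.

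The clamp, loader, single-strand binding and joining genes lay above wild type in L/L by a median of 0.28 (9 of 9) and below it in S/S by a median of −0.16 (8 of 9). Lig1, the ligase that seals Okazaki fragments, read 7.61, 7.65 and 8.08 in the L-set controls and 8.21, 8.15 and 8.42 in L/L (0.48, SE 0.13, adjusted p = 0.506 in limma). Values of the S-set controls were 8.40, 8.52 and 8.41 and those of S/S 8.03, 8.07 and 8.22 (−0.34, SE 0.13, adjusted p = 0.419). Both mutants stood apart from their wild types, on opposite sides, and the difference between the effects was 0.82 (SE 0.18, adjusted p = 0.317).

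Fen1, the nuclease that trims the flap left by a displaced primer, had the same layout on a smaller scale. It read 7.18, 7.02 and 7.37 in the L-set controls and 7.53, 7.40 and 7.38 in L/L (0.25, SE 0.12, adjusted p = 1 in limma). The S-set controls read 7.46, 7.81 and 7.60 and S/S 7.35, 7.27 and 7.33 (−0.31, SE 0.12, adjusted p = 0.418). The gap between the nearest arrays of the L set was narrow, 7.37 against 7.38.

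Pcna, the sliding clamp, read 10.22, 10.67 and 10.85 in the L-set controls and 10.92, 10.83 and 11.26 in L/L (0.42, SE 0.16, adjusted p = 1 in limma), with overlap in array 3 of the wild type. Values of the S-set controls were 10.96, 11.01 and 11.26 and those of S/S 10.96, 11.08 and 11.08 (−0.03, SE 0.16). A second probe set of Pcna, annotated to the same transcripts, differed by 0.41 in L/L and −0.05 in S/S. Whether either probe set also reads a near-identical copy of the gene was not tested. The loader genes Rfc3 (0.24 in L/L, −0.16 in S/S), Rfc4 (0.30 and 0.00) and Rfc5 (0.28 and −0.34), and Dscc1 (0.12 and −0.24), overlapped with wild type in both sets. Dscc1 read 5.74 in S-set control array 1 against 5.27 and 5.23 in arrays 2 and 3, and differed by −0.08 in S/S without array 1. Rpa1, the large subunit of the single-strand binding complex, differed by 0.39 in L/L (SE 0.11, adjusted p = 0.468) without overlap and by −0.10 in S/S, and its partner Rpa2 by 0.24 and −0.12 with overlap.

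The helicase activation genes serve to turn the loaded helicase on: the GINS complex and Cdc45 join it, and the kinase Cdc7 triggers that step. All 6 lay above wild type in L/L (median 0.26), and 4 of 6 lay below it in S/S (median −0.08). Gins1 read 6.0, 6.38 and 6.75 in the L-set controls and 6.99, 7.01 and 7.25 in L/L (0.71, SE 0.17, adjusted p = 0.342 in limma), without overlap. It read 6.32, 6.54 and 6.54 in the S-set controls and 6.16, 6.50 and 6.35 in S/S (−0.13, SE 0.17), so that the L/L arrays were the highest of all 12.

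Gins2 read 8.33, 8.52 and 8.70 in the L-set controls and 8.89, 9.19 and 9.08 in L/L (0.54, SE 0.13, adjusted p = 0.406 in limma). It read 8.60, 8.73 and 8.91 in the S-set controls and 8.91, 8.60 and 8.78 in S/S (0.02, SE 0.13). The groups were apart in the L set and overlapped in the S set. Gins3 (0.16 in L/L, 0.02 in S/S) and Gins4 (0.23 and −0.20) were also apart in L/L and overlapped in S/S.

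Cdc45 was the helicase gene with the smallest p in S/S. It read 8.19, 7.92 and 7.94 in the S-set controls and 7.69, 7.67 and 7.77 in S/S, which did not overlap (−0.31, SE 0.12, adjusted p = 0.439 in limma). The L-set controls read 7.28, 7.50 and 7.76 and L/L 7.84, 7.82 and 7.75 (0.29, SE 0.12, adjusted p = 1), with wild-type array 3 inside the L/L range. Cdc7, the most nearly level of these genes, differed by 0.09 and −0.03 and read at most 6.18 in any array.

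Among the checkpoint and repair genes all 6 lay above wild type in L/L (median 0.30) and 5 of 6 below it in S/S (median −0.22). Ung, the glycosylase that removes uracil from DNA, differed by 0.46 in L/L (SE 0.15, adjusted p = 0.855 in limma) without overlap and by −0.29 in S/S with overlap. Its S/S value rests in large part on S-set control array 1, which read 7.51 against 6.98 and 6.92, and was −0.10 without that array. Exo1, a nuclease of mismatch repair and end resection, differed by 0.33 and −0.14, and Timeless, a fork protection factor, by 0.28 and −0.23. Both were apart from wild type in L/L and overlapped in S/S. The checkpoint mediator Clspn (0.08 in L/L, −0.22 in S/S) and the recombination gene Brca1 (0.12 and −0.21) overlapped in both.

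Chek1, the kinase that acts when forks stall, was the member that lay farthest above wild type in S/S, by 0.55 (SE 0.35). That value rests on S-set control array 1, which read 5.96 against 7.58 and 7.67 in arrays 2 and 3, and the difference was 0.00 without it. The S/S arrays read 7.32, 8.06 and 7.49. The L-set controls read 7.47, 7.46 and 7.64 and L/L 8.54, 8.52 and 8.10 (0.86, SE 0.35, adjusted p = 1 in limma), without overlap. Its L/L values were the highest of the 12 arrays.

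Of the 4 nucleotide synthesis genes 3 had groups apart in L/L (9.71% of all genes). Ribonucleotide reductase, which makes deoxynucleotides from ribonucleotides, and thymidylate synthase, which makes thymidylate anew, supplied these 3, and the groups of the salvage kinase Tk1 overlapped. Rrm2, the reductase subunit that limits its activity through the cycle, read 9.39, 9.50 and 9.89 in the L-set controls and 10.28, 10.13 and 10.15 in L/L (0.59, SE 0.19, adjusted p = 0.855 in limma). It read 9.28, 10.01 and 10.04 in the S-set controls and 9.62, 9.96 and 9.89 in S/S (0.05, SE 0.19). Rrm1, the larger subunit, differed by 0.56 in L/L (SE 0.14, adjusted p = 0.426) and 0.08 in S/S, and Tyms by 0.42 (SE 0.13, adjusted p = 0.783) and −0.11.

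Tk1 was the member with the largest difference below wild type in S/S. It read 8.52, 8.89 and 8.75 in the S-set controls and 8.06, 8.28 and 8.37 in S/S, which did not overlap (−0.49, SE 0.18, adjusted p = 0.414 in limma). The L-set controls read 7.66, 8.21 and 8.55 and L/L 8.24, 8.29 and 8.41 (0.17, SE 0.18), with the L/L arrays inside the wild-type range. A second, dimmer Tk1 probe set gave −0.41 in S/S and 0.15 in L/L. Whether either Tk1 probe set also reads a near-identical copy of the gene was not tested. With L-set control array 1 left out, the L/L difference of Tk1 was −0.06.

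Of the histone supply and assembly genes, Chaf1b had the smallest p of all members in L/L, in S/S and in the difference between the effects. It encodes the middle subunit of chromatin assembly factor 1, which places new histones behind the fork. The L-set controls read 8.03, 8.12 and 8.69 and L/L 9.25, 9.16 and 9.26, a gap of 0.95 (SE 0.16, 1.93-fold, adjusted p = 0.0805 in limma) that ranked 11 by p among 19938 genes. The S-set controls read 9.40, 9.19 and 9.31 and S/S 8.68, 8.89 and 9.06 (−0.42, SE 0.16, adjusted p = 0.407).

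The Chaf1b groups were apart in both sets, and the L/L arrays overlapped the S-set controls. The difference between the effects was 1.37 (SE 0.22, adjusted p = 0.088) and ranked 8 by p. Its partner Chaf1a differed by 0.48 in L/L (SE 0.16, adjusted p = 0.964) without overlap and by −0.18 in S/S with overlap. Slbp, which binds the stem-loop of histone messages, differed by 0.16 and −0.05, with overlap in both sets. A second Slbp probe set gave 0.26 in L/L and 0.00 in S/S. With that probe set the L/L groups narrowly did not overlap (8.48 against 8.49 in the nearest arrays), and the S/S groups did. Whether either Slbp probe set also reads a near-identical copy was not tested.

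**Figure D4:**
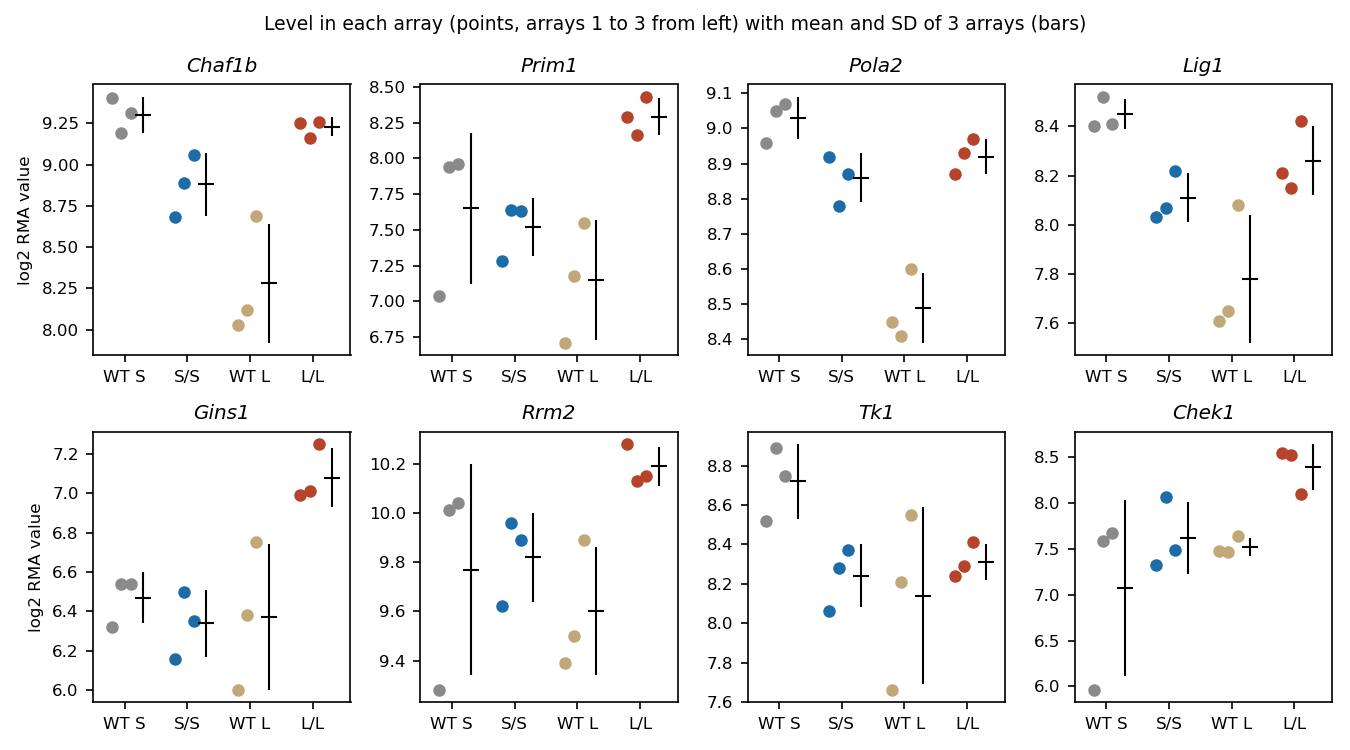
Log2 level of 8 members in each array (points, arrays 1 to 3 from left) with the mean and SD of 3 arrays (bars); WT S and WT L are the S-set and L-set controls, and each panel has its own axis, which does not start at 0. Chaf1b, Pola2 and Lig1 lie lower in S/S and higher in L/L than in their own wild types without overlap, and Chek1 in S-set control array 1 lies far below the other arrays.

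Other genes of the same machinery, 46 measured of 49 listed, were read beside the members. In L/L 41 of 46 lay above wild type, with a median of 0.17 and a range of −0.28 to 0.66, and 0 passed. At an unadjusted p under 0.05, 15 were higher (2.68% of all genes), and groups were apart for 22 (9.71%). Those with the smallest p were Donson (0.55), which helps assemble the helicase, the fork protection partner of Timeless, Tipin (0.66), Dtymk (0.44), the kinase that follows thymidylate synthesis, and the polymerase alpha anchor Wdhd1 (0.57), with adjusted p-values of 0.342 to 0.506 in limma. In S/S 28 of 46 lay below wild type (median −0.05) and 0 passed in limma. There 7 were lower and 1 higher at an unadjusted p under 0.05 (4.93% and 5.21% of all genes), and groups were apart as lower for 8 (6.29%). The smallest p-values there were those of Fanci (−0.41) and Fancd2 (−0.33), a pair of crosslink repair, of Chtf18 (−0.33), the partner of Dscc1, and of Dut (−0.47), which keeps uracil out of the nucleotide pool (adjusted p = 0.209 to 0.396).

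The 15 origin licensing genes had an L/L median of 0.35, with 11 above 0. Of them 1 passed in limma (0.0401% of all genes): Mcm6 (1.17, adjusted p = 0.0308), a subunit of the replicative helicase. In L/L 8 of the 15 were higher at an unadjusted p under 0.05 (2.68% of all genes). Groups were apart as higher for 8 (9.71%) and as lower for 1 (5.1%). Their S/S median was −0.16. The 29 mitosis genes measured had an L/L median of 0.19, with 25 above 0 and groups apart for 1 (9.71% of all genes). Their S/S median was −0.27, with 25 below 0 and groups apart as lower for 10 (6.29% of all genes). In L/L the arrays averaged 0.20 for the members in every array but 0.03, −0.12 and −0.05 for the mitosis genes. Differences between these lists were not tested.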

How the data were processed

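RNA of 12 samples in 4 groups of 3 was measured on Affymetrix Mouse Gene 1.0 ST arrays. The deposited values are log2 RMA values, made by the authors in Partek, as their design text states. Its version, the genome build and which arrays were normalized together are not given in the sources used here. Values between 2.43 and 14.67 show the log2 scale. The number of arrays limits the precision.

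Of 35556 probe sets, 21789 carried 1 gene symbol in the platform annotation, 1621 several and 12146 none. Only the first were used, 1 per gene, without a filter on dim values. A model with 4 group means was fitted with limma 3.58.1 in R 4.3.3 (8 residual and 5.19 prior degrees of freedom), and p-values were adjusted by Benjamini-Hochberg over 19938 genes within each contrast. Errors are the SE of the model or the SD of 3 arrays.

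The members and gene lists were chosen with earlier results of these data known, so no test over a list is given. By the rule for named genes, array values are printed for the 5 members of smallest p in S/S, in L/L and in the difference between them, and for Pcna, Rrm2 and Tk1. The array values of Chek1 were added after they were seen. Of the other pathway genes the 4 of smallest p in each mutant are named. Lists of endothelial, epithelial and skeletal muscle markers were read too: their L/L medians were 0.05, 0.04 and 0.06 and their S/S medians −0.09, −0.19 and −0.15. In S/S the endothelial Emcn (1.62, adjusted p = 0.197 in limma) and Flt1 (0.72, 0.0603) lay above wild type without overlap, singled out after their values were seen. Of the 8 endothelial markers 3 lay above wild type in S/S and 5 below. Groups were apart as higher for 2 (5.49% of all genes). They were apart as lower for 2 (6.29%), Cdh5 (−0.17) and Egfl7 (−0.31). Relative to the mean over 12 arrays, the epithelial and muscle lists averaged 0.47 and 0.45 in S-set control array 1 and −0.12 to 0.07 in the other arrays. Same-numbered arrays did not deviate together in every pair, and the main fit does not pair the samples. The 2 arrays with Y-linked genes on both carry number 1. The labels do not say whether replicate numbers pair the samples, and this check cannot decide it. Alternatives covered normalization, probe set choice, dim genes, each set alone, the variance model, array weights, arrays with Y-linked genes and each array left out.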

Additional observations from a re-analysis of the deposited data

How the results depend on the processing

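The medians and the counts of members above or below 0 kept their direction in all 21 alternatives, 12 of which leave out 1 array. In L/L the median ran from 0.24 to 0.47 when single arrays were left out and was 0.26 without the arrays with Y-linked genes. The number of members passing was 0 in S/S, L/L and their difference in all alternatives but 3. Array weights gave 2, 16 and 16. Leaving out single arrays gave 0 to 2 in L/L and 0 to 1 in the difference. Genes passing over all genes in S/S, 24 as reported, were 44 with each set alone, 415 with array weights, 37 without the arrays with Y-linked genes and 2 to 38 without single arrays. In L/L, 8 as reported, they were 5, 336, 2 and 2 to 26 in the same order. For the difference, 3 as reported, they were 7 after quantile normalization, 293 with array weights and 3 to 21 without single arrays. Between the wild types 1736 genes passed, 6520 with array weights, 304 without the arrays with Y-linked genes and 525 to 2078 without single arrays. Of the members, 7 as reported, 12 passed after quantile normalization, 26 with array weights, 2 without the arrays with Y-linked genes and 3 to 15 without single arrays. The cause of these changes was not tested.

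With the replicate number as a replicate block, 37 genes passed in S/S, 5 in L/L and 3 in the difference, and 0 members in each. Deviations of same-numbered arrays correlated at 0.388, 0.475 and −0.122 in the S set and 0.601, 0.058 and 0.359 in the L set, and not every array correlated best with its own number. The block changed no call of a member. The comparison of the controls was not run with the block, and neither it nor the difference was run with each set alone.

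Members near 0 changed sign in S/S. After quantile normalization Rfc4 was −0.07, Gins2 −0.03, Cdc7 0.07 and Rrm2 −0.03. With array weights Pola1 was −0.15, Pcna 0.02, Rfc4 −0.25, Gins2 −0.03, Gins3 −0.19, Cdc7 0.03, Rrm1 −0.10, Rrm2 −0.12 and Slbp 0.00. Without single arrays Pola1 ran from −0.18 to 0.15, Rfc4 from −0.22 to 0.15, Gins2 from −0.06 to 0.10, Gins3 from −0.21 to 0.14, Chek1 from 0.00 to 0.85, Rrm1 from −0.07 to 0.20 and Rrm2 from −0.20 to 0.18. Pold3 ran from −0.14 to 0.10, Prim1 from −0.43 to 0.03, Rfc3 from −0.34 to 0.01, Pcna from −0.09 to 0.06, Cdc7 from −0.07 to 0.04 and Slbp from −0.15 to 0.04. In L/L without the arrays with Y-linked genes Brca1 was −0.01 and Tk1 −0.03. Without single arrays Cdc7 ran from 0.00 to 0.22, Clspn from 0.00 to 0.20 and Tk1 from −0.06 to 0.38. The second probe sets, the counts above or below 0 and the counts of groups apart were added after seeing the data.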
